A study of Mus musculus with 4 samples.

Results

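Scgb1b20, Scgb2b12, Scgb2b20 and Scgb2b27 are 4 genes of the secretoglobin family, chosen by symbol from earlier results of these data and described here in every sorted population of the adult mouse prostate. They are 4 of 34 genes whose symbol starts with Scgb, among 31053 genes in the count tables. The choice rested on their levels across lobes, treatments and compartments, so those levels are given as a description, with no p-value for any of the 4. The single cells came from P2-Runx1:RFP mice of the ICR (CD-1) strain, over 8 weeks old, in which red fluorescent protein (RFP) is driven by the proximal (P2) promoter of Runx1. The ventral (VP), anterior (AP) and dorsolateral (DLP) lobes were dissected, and their EPCAM+ epithelial cells were sorted by RFP from intact males and from males castrated for over 4 weeks, tagged with a lipid-anchored barcode per population, and pooled into 3 droplet runs, each made of cells pooled from several mice. Run 1 held intact lobes and a pool of all castrated lobes (Mix), run 2 held intact and castrated lobes, and run 3 held intact lobes. Intact DLP RFP+ cells were assigned in run 3 alone. In the other two runs their barcode failed to label, per the methods, so that many cells there carried none. Another library held explants of the urogenital sinus (UGS) taken from ICR (CD-1) embryos at E15.5 and cultured with 10 μM dihydrotestosterone.

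Secretoglobins are small secreted proteins. The mouse Scgb1b and Scgb2b genes encode the alpha and beta-gamma subunits of androgen-binding proteins, best known from salivary and lacrimal glands, where 1 alpha subunit is joined to 1 beta-gamma subunit by disulfide bonds. The genes arose by repeated duplication and lie in a cluster as neighbouring alpha and beta-gamma pairs. Prostate luminal cells secrete proteins into the ducts, and much of this output depends on androgen.

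Scgb1b20 is an alpha gene and the other 3 members are beta-gamma genes. All 4 have 3 exons and lie on mouse chromosome 7 (GENCODE annotation on GRCm38, the build of the count tables). Scgb2b12 (ENSMUSG00000097982) spans chr7:32325286-32327245 on the minus strand. Scgb2b20 (ENSMUSG00000094305, chr7:33364343-33366322, minus strand) and Scgb1b20 (ENSMUSG00000094978, chr7:33373234-33374559, plus strand) stand head to head, 6911 bases apart. Scgb2b27 (ENSMUSG00000066584) spans chr7:34011921-34013942 on the minus strand.

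The genes are near copies of each other, which bears on every count below, since the reads come from the 3′ end of the transcript. The last 60 coding bases are shown 5′ to 3′ up to the stop codon, with the bases that differ from Scgb2b12 at the same distance from the stop in capitals. Scgb2b7, a gene outside the 4, is included because it is a near copy of Scgb2b20.
Scgb2b12: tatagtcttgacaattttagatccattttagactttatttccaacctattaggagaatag
Scgb2b20: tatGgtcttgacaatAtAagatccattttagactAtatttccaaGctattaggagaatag
Scgb2b7: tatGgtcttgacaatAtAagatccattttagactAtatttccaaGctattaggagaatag
Scgb2b27: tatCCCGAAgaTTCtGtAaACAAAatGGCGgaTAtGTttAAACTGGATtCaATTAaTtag

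Scgb2b20 and Scgb2b7 each differed from Scgb2b12 at 5 of these bases and Scgb2b27 at 39. Over the whole coding sequence (339 bases), Scgb2b20 was 98.2% identical to Scgb2b7 and 93.2% to Scgb2b12, whereas Scgb2b27 was 67.6% identical to Scgb2b12 and 66.5% to Scgb2b20. The alpha gene shows the same closeness to its own kind. The last 60 coding bases of Scgb1b20 and of Scgb1b7, its near copy, are shown with the base of Scgb1b7 that differs in capitals.
Scgb1b20: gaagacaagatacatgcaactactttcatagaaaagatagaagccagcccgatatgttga
Scgb1b7: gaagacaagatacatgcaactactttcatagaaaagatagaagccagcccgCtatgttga

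Scgb1b20 and Scgb1b7 were 98.9% identical over 282 coding bases, and Scgb1b20 was 49.3% to 49.4% identical to the 3 beta-gamma members. Of all 50-base stretches in the last 300 transcript bases, 57.0% of those of Scgb1b20, 73.7% of those of Scgb2b12 and 78.1% of those of Scgb2b20 also occurred, base for base, in the transcript of another gene, against 5.18% for Scgb2b27. Counts of Scgb1b20, Scgb2b12 and Scgb2b20 are therefore uncertain, and those of Scgb2b27 less so: reads that match several genes are not counted by this kind of pipeline, and how many were lost or placed on a relative was not tested.

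The promoters of Scgb2b12 and Scgb2b20 were as alike as their coding sequences. The 250 bases before the start of each beta-gamma member are shown (RefSeq, GRCm38.p6, minus strand, 5′ to 3′), with TGTTCT, a motif that androgen and glucocorticoid receptors recognise, in capitals; Scgb1b20 is named only.
Scgb2b12, chr7:32327246-32327495: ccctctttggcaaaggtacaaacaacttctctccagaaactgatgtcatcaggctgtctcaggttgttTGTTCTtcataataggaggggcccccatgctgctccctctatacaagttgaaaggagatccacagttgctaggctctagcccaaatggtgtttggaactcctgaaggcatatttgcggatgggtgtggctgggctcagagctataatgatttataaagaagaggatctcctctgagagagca
Scgb2b20, chr7:33366320-33366569: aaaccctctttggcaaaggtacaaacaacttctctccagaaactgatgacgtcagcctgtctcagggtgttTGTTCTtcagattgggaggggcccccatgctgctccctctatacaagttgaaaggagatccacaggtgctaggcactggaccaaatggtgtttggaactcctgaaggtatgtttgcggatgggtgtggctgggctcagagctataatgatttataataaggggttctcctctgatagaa
Scgb2b27, chr7:34013943-34014192: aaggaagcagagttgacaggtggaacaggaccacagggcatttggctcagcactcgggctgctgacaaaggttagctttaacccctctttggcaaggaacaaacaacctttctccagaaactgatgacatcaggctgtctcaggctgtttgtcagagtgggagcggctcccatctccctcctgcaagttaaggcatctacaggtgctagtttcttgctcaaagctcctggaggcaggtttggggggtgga

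The letters TGTTCT, searched on both strands, occurred once before Scgb2b12, with their first base at position -182, and once before Scgb2b20, at position -179, and were not found in this window of Scgb2b27. Over the whole windows of the table (300 bases, which add 50 after the start to those shown), Scgb2b12 and Scgb2b20 were 93.3% identical in a local alignment of 298 positions, against 74.0% and 72.7% for Scgb2b27 with each of them over 242 and 245 positions. Of 32851 promoters in the table, 16.1% held the letters in the 250 bases before the start, and of the 32 promoters of the family 19 did (59.4%), a share that counts near copies of 1 ancestral promoter several times.

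The runs gave 824, 2194 and 1673 cells with a single barcode, at medians of 13055, 10618.5 and 9750 UMIs per cell (UMIs are unique molecular identifiers, each standing for 1 captured RNA molecule). Of these 4691 cells, 1664 were gated as luminal and 2324 as basal on Krt5, Krt14 and Krt15, and 361 held Ptprc, the pan-leukocyte gene. Of markers that the gate had not used, the basal genes Trp63, Krt17 and Col17a1 were all higher in basal cells (Trp63 was seen in 0.601% of luminal and 49.1% of basal cells). The luminal genes separated less well. Dpp4 was seen in 46.5% and 5.85% and Cd24a in 90.9% and 44.4%, but Krt18 (1615 against 1309 CPM, counts per 1000000 UMIs) and Krt19 (1104 against 928 CPM) were only slightly higher in luminal cells and Krt8 was lower (888 against 1062 CPM). Intact luminal cells differed in depth by lobe, at medians of 15669.5 (AP), 21573.5 (DLP) and 45070.5 (VP) UMIs, so levels are given as CPM of a summed population and shares of cells are also given at an equal 5000 UMIs per cell. Cell barcodes shared between runs numbered 6 (runs 1 and 2), 0 (runs 1 and 3) and 5 (runs 2 and 3).

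With the lobes pooled, all 4 members stood higher in luminal than in basal cells. The lobes entered in unlike shares. Intact luminal cells numbered 484 (VP), 432 (AP) and 224 (DLP), and intact basal cells 317, 1042 and 639. Lobe and compartment are therefore not separated in the values that follow. Summed over intact cells of each run, Scgb2b27 stood at 3857 ± 897 CPM in luminal cells and 136 ± 105 CPM in basal cells (mean ± SD, n = 3 runs). Scgb2b20 stood at 179 ± 65.3 against 2.54 ± 2.77 CPM, Scgb1b20 at 115 ± 74.3 against 1.15 ± 0.71 CPM, and Scgb2b12 at 102 ± 73.4 against 3.39 ± 2.99 CPM. In each of the 3 runs the luminal level lay above the basal level of every run for all 4 genes. They were chosen on such levels, and the share of all genes for which this held was not counted. The log2 fold changes, luminal over basal, were 7.58 ± 0.77 (SE) for Scgb1b20, 7.05 ± 0.86 for Scgb2b20, 5.89 ± 1.09 for Scgb2b12 and 5.61 ± 0.86 for Scgb2b27.

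Much of the basal signal lay in single cells. In basal cells of the VP, Scgb2b27 reached 2226 CPM in RFP+ cells of run 1 and 981 CPM in RFP- cells of run 2, where 1 cell held 887 of 1036 and 1 cell held 823 of 1028 UMIs. In intact basal cells of the AP and DLP it stood at 8.13 to 45.4 CPM. Luminal sums of AP RFP+ (14.9 to 554 CPM), AP RFP- (29.7 to 2858 CPM) and DLP RFP- cells (8.70 to 1482 CPM) reached into this range in their lowest runs.

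The Ptprc+ cells served as a measure of free RNA in the droplets. Those without any Epcam UMI held Scgb2b27 at 22.1 CPM in run 1 (6 UMIs, 34 cells) and at 26.2 CPM in run 2 (37 UMIs, 209 cells), never above 2 UMIs per cell; run 3 had 2 such cells and no UMI. The other 3 members stood at 0 to 1.42 CPM there. Basal levels of the AP and DLP lay on both sides of this background, and VP luminal levels were far above it. Counted with Epcam, the Ptprc+ cells of run 2 held Scgb2b27 at 860 CPM (318 cells), so Epcam+ Ptprc+ cells carried most of it, and they were not used as background. Whether they were doublets was not tested.

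The other genes of the family followed the same compartment, again with the lobes pooled. By edgeR's quasi-likelihood test on the sums per run, 39.2% of 11858 genes differed between luminal and basal cells and 18.8% were higher in luminal cells, at an adjusted p under 0.05. All 6 further family genes with enough counts were higher in luminal cells. They were Scgb1b27 (log2 fold change 6.65 ± 0.91, SE, adjusted p = 0.00149), Scgb1b7 (6.07 ± 1.18), Scgb2b17 (4.77 ± 0.92), Scgb2b24 (4.72 ± 0.75), Scgb2b7 (4.57 ± 1.23) and Scgb1b3 (2.36 ± 0.57). The count rested on run 2: without it, 2 of 7 testable family genes were called, while without run 1 it was 8 of 8 and without run 3 it was 5. Of 11 secretory and androgen-responsive genes listed for context (Pbsn, Tgm4, Msmb, Spink1, Sbp, Sbpl, Azgp1, Defb50, Mme, Fkbp5 and Tmprss2), 8 were higher in luminal cells and 0 were lower.

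Among luminal cells, the VP had the highest mean of every member. With RFP+ and RFP- cells of a run together, Scgb2b27 stood at 7665, 3280 and 7458 CPM in VP luminal cells of runs 1, 2 and 3, at 1194, 1482 and 1052 CPM in the DLP, and at 115, 2264 and 22.8 CPM in the AP. Scgb2b20 stood at 331, 145 and 422 CPM in the VP, at 0, 78.1 and 12.4 CPM in the DLP and at 0, 62.6 and 1.34 CPM in the AP. Scgb1b20 stood at 162, 78.9 and 342 CPM in the VP, at 0, 15.6 and 2.93 CPM in the DLP and at 0, 33.4 and 3.36 CPM in the AP. For these 3 genes every VP run lay above every DLP and AP run. The DLP values compare unlike populations, since those of runs 1 and 2 are RFP- cells alone, whereas in run 3 RFP+ cells held 4653 UMIs of Scgb2b27 and RFP- cells 13 (8.70 CPM).

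For Scgb1b20 and Scgb2b20 the size of the VP levels rested on single cells. Without the highest cell of each sum, an alternative added after seeing the data, the VP stood at 4.39, 16.8 and 129 CPM for Scgb1b20 and at 27.4, 55.6 and 244 CPM for Scgb2b20 (runs 1 to 3), and the highest AP or DLP run at 4.08 and 7.40 CPM. The VP values of run 1 that remain are below the AP and DLP levels of run 2 with all cells. For Scgb2b27 the VP stood at 6403, 2930 and 6525 CPM without these cells, and the highest AP or DLP run at 1543 CPM.

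Scgb2b12 was the exception, since its lobes overlapped. It stood at 104, 227 and 92.7 CPM in the VP, at 0, 93.1 and 43.7 CPM in the DLP and at 0, 100.3 and 0.67 CPM in the AP, so that the AP and DLP of run 2 passed or met the lowest VP run. Over all genes with at least 100 UMIs in the lobes compared, every VP run lay above every AP run for 2.86% of genes and above every DLP run for 2.64%. That 3 of 4 members did so is what they were chosen for. Run 2 held the highest AP and DLP level of each member, and in that run Spink1, a trypsin inhibitor gene abundant in VP luminal cells, was also high in those lobes (38929 to 94147 CPM in the AP and DLP populations, against 104 to 9353 CPM in those of run 1 and 1694 to 4673 CPM in those of run 3, DLP RFP+ aside).

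**Figure D1:**
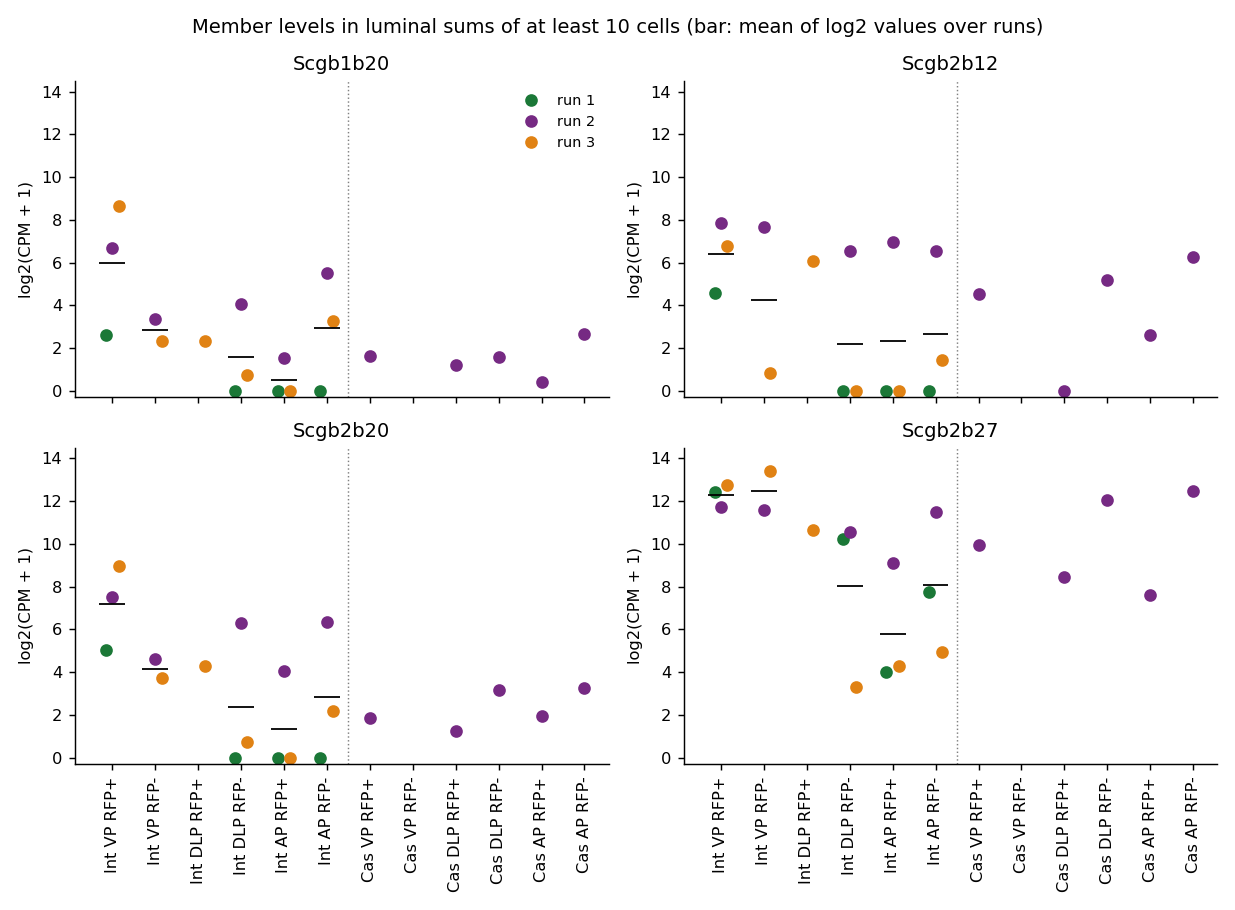
Level of each member as log2(CPM + 1) in luminal sums of at least 10 cells, by treatment (Int, intact; Cas, castrated), lobe and RFP; points are runs and bars are means over runs. Scgb2b27 lay between 3070 and 10748 CPM in all intact VP sums, while its AP and DLP sums spread from 8.70 to 2858 CPM and were highest in run 2 among the RFP- sums. In the highest VP sum, RFP- of run 3, 1 cell held 9176 UMIs of Scgb2b27.

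Sorted RFP- populations put the VP first for Scgb2b27. In VP RFP- luminal cells this gene stood at 3070 and 10748 CPM (runs 2 and 3), in DLP RFP- cells at 1194, 1482 and 8.70 CPM and in AP RFP- cells at 213, 2858 and 29.7 CPM (runs 1 to 3). In run 3, 1 VP RFP- cell with 236110 UMIs held 9176 UMIs of Scgb2b27. Without the highest cell of each sum, VP RFP- cells stood at 2200.5 to 4097 CPM. The highest AP RFP- and DLP RFP- sums then stood at 1893 and 882 CPM. The log2 fold change of VP RFP- over AP RFP- cells was 3.72 ± 1.80 (SE) for Scgb2b27, 2.32 ± 1.76 for Scgb2b12, 0.05 ± 1.56 for Scgb2b20 and -0.67 ± 1.54 for Scgb1b20. Against DLP RFP- cells it was 3.84 ± 1.81, 2.27 ± 1.80, 0.04 ± 1.59 and 0.90 ± 1.82 in the same order. DLP RFP- against AP RFP- cells gave values between -1.58 and 0.05. Leaving out 1 run moved VP RFP- over AP RFP- to between 1.80 and 7.78 for Scgb2b27, the latter without run 2, and to between -0.52 and 4.57 for Scgb2b20. Against DLP RFP- cells these genes ranged from 1.90 to 5.39 and from -0.41 to 5.59. With the run as a replicate block, Scgb2b27 stood at 6.26 ± 2.00 over AP RFP- and 5.45 ± 2.01 over DLP RFP- cells. The standard errors of 1.5 and more for the VP comparisons come from 1 fit to all intact luminal sums. They reflect the spread across those populations, not across the compared runs alone. The VP RFP- cells of run 1 (8 cells) were too few to enter, so leaving out run 2 or 3 left 1 VP RFP- sum. Without run 2 this was the run 3 sum that holds the cell with 9176 UMIs of Scgb2b27.

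In the fit without a block for run, which leaves out the pairing by run, the family genes outside the 4 did not reach the threshold between lobes. Of 10146 genes, 12.3% were called for VP RFP- against AP RFP- (6.46% higher and 5.87% lower in the VP), 4.8% for VP RFP- against DLP RFP- (1.37% higher and 3.43% lower) and 2.03% for DLP RFP- against AP RFP- (1.46% higher and 0.572% lower). By edgeR's test 0 of 6 passed in each of the 3 comparisons, with 3, 4 and 0 at an unadjusted p under 0.05, and DESeq2 called 0 as well. Scgb1b27 came nearest, at a log2 fold change of 3.97 ± 1.40 (SE; adjusted p = 0.0787) for VP RFP- over AP RFP- and 4.65 ± 1.45 (adjusted p = 0.0804) over DLP RFP-. With the run as a replicate block in edgeR, 2 of 6 passed for VP RFP- against AP RFP-, Scgb1b27 (5.19 ± 1.14, adjusted p = 0.00571) and Scgb2b7 (5.36 ± 1.61, adjusted p = 0.0325), and the same 2 passed against DLP RFP-. Without run 2, only the VP RFP- sum of run 3 was left, so only effect sizes are given. Over AP RFP- and DLP RFP- cells, Scgb1b27 then stood at log2 fold changes of 9.32 and 8.64, and Scgb2b7 at 7.62 and 10.0. Of the 11 context genes, 4 were higher and 2 lower in VP RFP- than in AP RFP- cells, among them Fkbp5 (3.28 ± 0.36), a chaperone gene induced by androgen, and Tgm4 (-5.95 ± 1.10), a secreted transglutaminase.

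With RFP, the reporter of Runx1, the 4 members showed no common direction. In VP RFP+ luminal cells Scgb1b20 stood at 5.06, 101 and 402 CPM (runs 1 to 3), against 9.21 and 4.05 CPM in VP RFP- cells of runs 2 and 3. Scgb2b20 stood at 31.5, 183 and 495 CPM against 23.4 and 12.2 CPM. For Scgb2b20 every RFP+ run lay above both of these RFP- runs, a pattern whose share over all genes was not counted. For Scgb1b20 the RFP+ level of run 1 (5.06 CPM) lay below the RFP- level of run 2 (9.21 CPM). The VP RFP- cells of run 1, too few to enter, stood above every RFP+ run for both genes. Scgb2b12 stood at 23.3, 234 and 109 CPM against 206 and 0.81 CPM, and Scgb2b27 at 5546, 3346 and 6874 CPM against 3070 and 10748 CPM, with overlap in both.

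The log2 fold change of VP RFP+ over RFP- was 4.60 ± 1.51 (SE) for Scgb1b20, 3.71 ± 1.64 for Scgb2b20, 0.26 ± 1.71 for Scgb2b12 and -0.49 ± 1.72 for Scgb2b27. Leaving out 1 run moved the value of Scgb2b12 to between -0.63 (without run 3) and 6.22 (without run 2). Each of these fits left 1 VP RFP- sum. The replicate block for run moved the value of Scgb2b12 to 2.53 ± 0.91. The values of Scgb1b20 and Scgb2b20 rested on very few cells: 1 cell held 62.8% of the Scgb1b20 UMIs of run 3 and 1 cell held 81.1% of those of run 2. The 8 VP RFP- luminal cells of run 1, left out above, included 1 cell with 483 UMIs of Scgb1b20 and 935 of Scgb2b20, so that their sum stood at 966 and 1870 CPM. Over all genes 0.404% were called in this comparison (0.00986% higher and 0.394% lower in RFP+ cells), and 0 of 6 further family genes, with 0 at an unadjusted p under 0.05 and 0 by DESeq2.

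In the AP, the RFP+ luminal cells held the members mainly in run 2. Scgb1b20 stood at 0, 1.95 and 0 CPM, Scgb2b20 at 0, 15.6 and 0 CPM, Scgb2b12 at 0, 123 and 0 CPM and Scgb2b27 at 14.9, 554 and 18.5 CPM in runs 1 to 3. In run 2 the level of Scgb2b12 lay above that of AP RFP- cells (92.5 CPM), while those of the other 3 lay below. A count of 0 in runs 1 and 3 allowed up to 2.48 and 3.27 CPM, for counting error only. The log2 fold change of AP RFP+ over RFP- was -5.11 ± 2.37 (SE) for Scgb1b20, -2.78 ± 1.80 for Scgb2b20, 0.22 ± 1.74 for Scgb2b12 and -2.22 ± 1.63 for Scgb2b27. In this comparison 16.6% of genes were called (9.58% higher and 6.99% lower in RFP+ cells), and 0 of the 6 further family genes, with 1 (Scgb1b27) at an unadjusted p under 0.05 and 0 by DESeq2. The single DLP RFP+ population of run 3 held Scgb2b27 at 1582 CPM (95% Poisson interval 1537 to 1628), Scgb2b12 at 66.0, Scgb2b20 at 18.4 and Scgb1b20 at 4.08 CPM.

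Within the VP the transcripts were spread very unevenly over cells. Of 484 intact VP luminal cells, 78.1% held at least 1 UMI of Scgb2b27, 21.1% of Scgb2b20, 19.2% of Scgb2b12 and 13% of Scgb1b20, at a median depth of 45070.5 UMIs. At 5000 UMIs per cell, Scgb2b27 was seen in 69.2%, 53.3% and 56.5% of VP RFP+ cells (runs 1 to 3) and in 41% and 25% of VP RFP- cells (runs 2 and 3). Ptprc+ Epcam-negative cells at the same 5000 UMIs showed it in 11.5% and 11.3% of cells (runs 1 and 2). The share of cells with 10 or more UMIs was 43.6% for Scgb2b27, 9.5% for Scgb2b12, 6.82% for Scgb2b20 and 3.72% for Scgb1b20.

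A few cells held most of the UMIs. The 10 highest cells held 94.6% of all VP luminal UMIs of Scgb1b20, 88.6% of Scgb2b20, 62.8% of Scgb2b12 and 36.4% of Scgb2b27, against 10.3% for Spink1. The first 2, 3, 7 and 19 cells, in the same order of genes, were enough to reach 50% of the UMIs, against 109 cells for Spink1. The highest single cells held 1756 UMIs of Scgb1b20, 1476 of Scgb2b20, 574 of Scgb2b12 and 9176 of Scgb2b27. A cell with 6293 UMIs of Scgb2b27 had 60723 UMIs in all, so that 10.4% of its UMIs were of this gene. The cell with 9176 had 236110, the deepest of those named here.

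**Figure D2:**
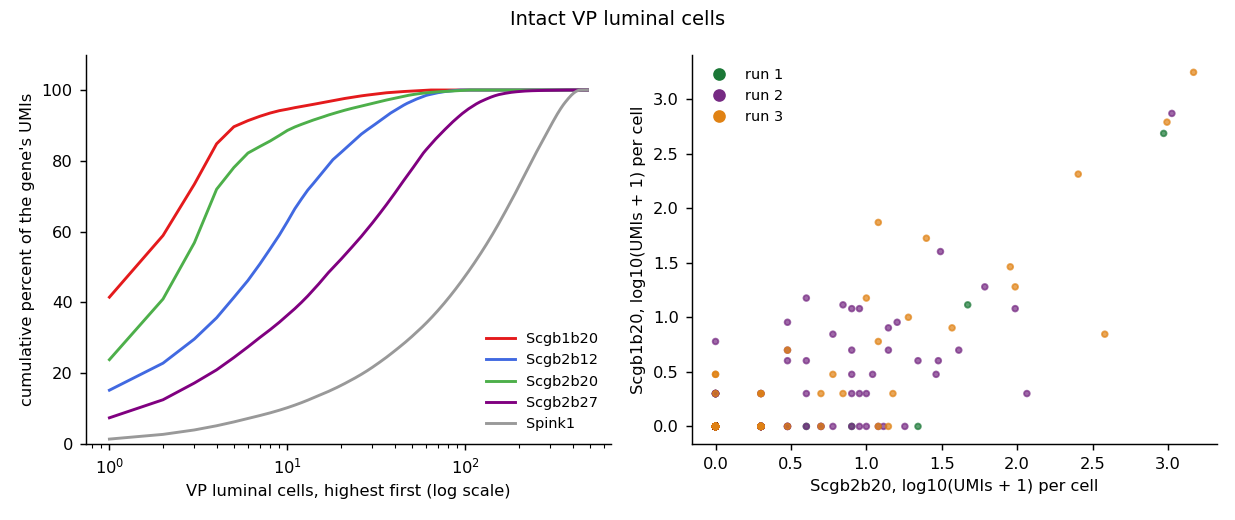
Left, cumulative percent of a gene's UMIs over the 484 intact VP luminal cells ranked from the highest (log x axis), for the 4 members and Spink1; right, UMIs of Scgb2b20 and Scgb1b20 in each of these cells as log10(UMIs + 1), coloured by run. The curve of Scgb1b20 passes 94.6% and that of Spink1 10.3% at 10 cells, and the 4 cells highest in Scgb1b20 are also the 4 highest in Scgb2b20.

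High cells often carried the neighbouring alpha and beta-gamma genes together. One VP RFP+ cell of run 3 with 57724 UMIs held 1756 of Scgb1b20, 1476 of Scgb2b20 and 5828 of Scgb2b27, but 59 of Scgb2b12. A VP RFP+ cell of run 2 with 46493 UMIs held 737, 1060, 4292 and 175 UMIs of the same genes. The 4 cells highest in Scgb1b20 were the 4 highest in Scgb2b20, and came from all 3 runs. Another VP RFP+ cell of run 3 held 613 UMIs of Scgb1b20 and 984 of Scgb2b20 but only 99 of Scgb2b27.

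Scgb1b20 and Scgb2b20 were found together in 51 VP cells, which were 81.0% of the 63 cells with Scgb1b20 and 50% of the 102 cells with Scgb2b20; of cells without Scgb1b20, 12.1% held Scgb2b20. Scgb2b12 and Scgb2b20 were found together in 69 cells, 74.2% of the 93 with Scgb2b12 and 67.6% of those with Scgb2b20. Scgb2b27 was present in 96.8%, 97.8% and 96.1% of cells with Scgb1b20, Scgb2b12 and Scgb2b20. Spearman's rho over the 484 cells was 0.63 for Scgb1b20 with Scgb2b20 and 0.70 for Scgb2b12 with Scgb2b20, and 0.54 and 0.49 after thinning to 5000 UMIs. It was 0.35 to 0.43 for Scgb2b27 with the other 3, but 0.63 for Scgb2b27 with Scgb1b27, the alpha gene of the same number. Cells of a run share a library, and near-identical transcripts can trade reads, so these are descriptions of the cells measured.

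Most VP cells held 1 member or none. Of the 484 cells, 99 held no member, 254 held 1, 55 held 2, 32 held 3 and 44 held all 4. Among the 233 cells with 10 or more UMIs from the family, the leading gene was Scgb2b27 in 183, Scgb2b7 in 43, Scgb2b20 in 4, Scgb2b12 in 2 and Scgb1b20 in 1. The family as a whole made up 0.818% of VP luminal UMIs, 0.210% in the DLP and 0.227% in the AP, and up to 15.9% of a single VP cell. VP cells with a UMI of Krt4, a keratin gene of proximal duct cells, were few. In run 2, 18 such cells held Scgb2b27 at 261 CPM against 3517 CPM in the 228 without, whereas in run 3 the values were 7964 (16 cells, 5828 of 6124 UMIs in 1 cell) and 7405 CPM (172 cells).

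In the AP and DLP, Scgb2b27 lay almost wholly in cells rich in Spink1. When intact luminal cells were split at Spink1 making up 1% of their UMIs, a split chosen after the values were seen, 346 of 368 VP RFP+ and 94 of 116 VP RFP- cells were above it, against 12 of 204 AP RFP+, 22 of 228 AP RFP-, 17 of 163 DLP RFP- and 37 of 61 DLP RFP+ cells. The Spink1-high cells, few except in DLP RFP+, held 92.5%, 99%, 98.8% and 99.8% of the Scgb2b27 UMIs of these AP and DLP populations. Their level of Scgb2b27 was 819 CPM (AP RFP+), 9493 CPM (AP RFP-), 3707 CPM (DLP RFP-) and 1938 CPM (DLP RFP+). The remaining AP and DLP cells held it at 12.9 to 23.4 CPM, no higher than the Ptprc+ background of run 2, whereas Spink1-low cells of the VP held it at 309 (RFP+) and 199 CPM (RFP-).

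Some technical values moved with this split. Spink1-high AP RFP+ cells had a median depth of 49895 UMIs against 10227.5 in the rest, and their barcode made up a median of 25.5% of barcode counts against 50.2%. In AP RFP- cells the barcode medians were 63.4% and 68.7%, in DLP RFP- cells 65.0% and 76.4%, and in DLP RFP+ cells 62.3% and 62.8%. The split moved with these values in the VP as well, where Spink1-high RFP+ cells had a median depth of 49745.5 against 19645.5 UMIs and barcode medians were 69.4% and 73.1% in RFP+ and 67.1% and 74.4% in RFP- cells. Run moved with the split too. Run 2 held 11 of the 12 Spink1-high AP RFP+ cells, 18 of the 22 AP RFP- and 14 of the 17 DLP RFP- cells. Of all intact luminal cells it held 45 of 204, 127 of 228 and 66 of 163, in the same order. Runs were pooled here, so the run is not separated from the split in these populations. Whether barcode calls, doublets or the dissection of the lobes had a part in the AP and DLP values was not tested.

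**Figure D3:**
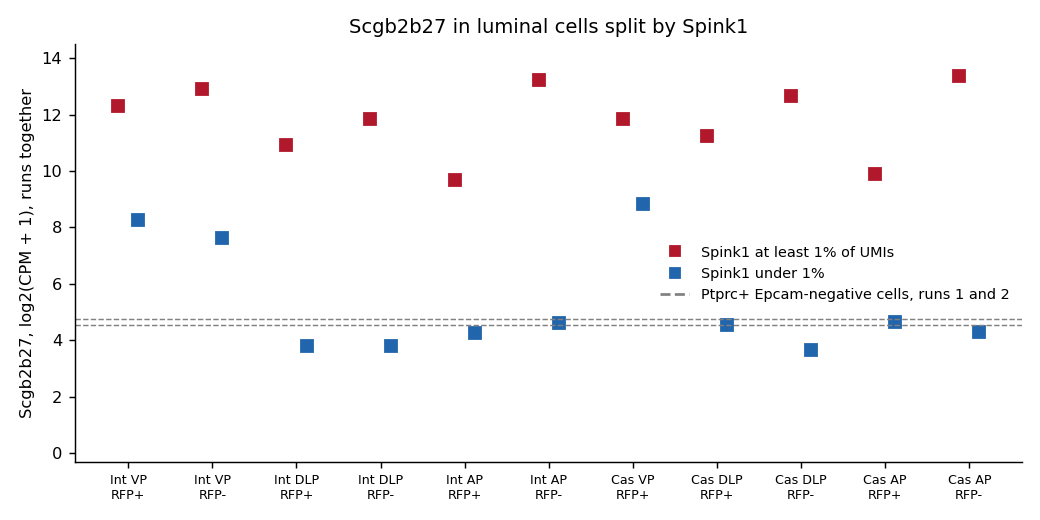
Scgb2b27 as log2(CPM + 1) in luminal cells of each population, runs together, with Spink1 at 1% or more of the cell's UMIs (red) and under it (blue); dashed lines are Ptprc+ Epcam-negative cells of runs 1 and 2. Blue squares of intact AP and DLP populations lie at 12.9 to 23.4 CPM, close to the dashed lines at 22.1 and 26.2 CPM, and red squares lie at 819 CPM or higher.

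After castration, luminal VP RFP+ cells of run 2 held less of all 4 members. Scgb2b27 stood at 986 CPM in 124 castrated cells (95% Poisson interval 946 to 1027) and at 3346 CPM in 183 intact cells (3309 to 3384), a 3.40-fold lower level. Scgb2b12 stood at 22.3 (16.6 to 29.2) against 234 CPM, a 10.5-fold lower level. Scgb1b20 stood at 2.14 (0.70 to 5.0) against 101 CPM, and Scgb2b20 at 2.57 (0.94 to 5.60) against 183 CPM, 47.0-fold and 71.1-fold lower on 5 and 6 castrated UMIs. There was 1 pool per treatment, so no test was possible, and the intervals cover counting error only.

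These differences ran against the shift of all genes. Over 10953 genes with at least 10 UMIs in both sums together, the median log2 ratio of castrated over intact was 0.88, and 4.83% of genes were at least 2-fold lower, against 42.5% at least 2-fold higher. Without the highest cell of each sum, the log2 ratios were -1.85 for Scgb2b27, -5.44 for Scgb2b12 and -5.22 for Scgb2b20, against -1.76, -3.39 and -6.15 with all cells; 43 of the 52 castrated Scgb2b12 UMIs lay in 1 cell. Scgb1b20 then stood at 0.88 CPM in castrated cells (2 UMIs, 95% Poisson interval 0.11 to 3.19) and 19.1 CPM in intact cells, down from 101 CPM. In run 2, 7 of 124 castrated VP RFP+ cells passed the Spink1 split, against 172 of 183 intact ones. Whether this change in the mix of cells had a part in the lower levels was not tested. The castrated cells that passed held Scgb2b27 at 3689 CPM against 458 CPM in the others. The other 3 members stood at 0 to 1.02 CPM in these Spink1-low cells, on 0 to 2 UMIs each. The 8 castrated VP RFP- luminal cells, too few for a comparison, included 7 Spink1-high cells and held Scgb2b27 at 8415 CPM (2254 of 2762 UMIs in 1 cell); the 8 castrated cells of run 1, from pooled lobes, held 3 UMIs of it in all.

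**Figure D4:**
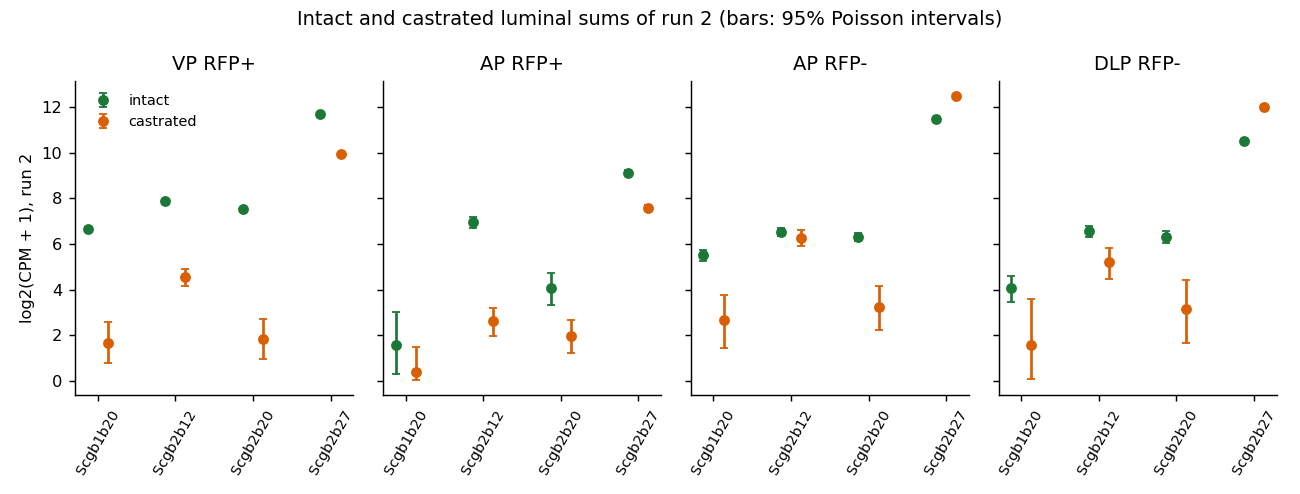
Levels of the 4 members as log2(CPM + 1) in intact (green) and castrated (orange) luminal sums of run 2, for the 4 populations present in both; bars are 95% Poisson intervals, which cover counting error only. In VP RFP+ all 4 castrated points lie below the intact ones, whereas Scgb2b27 lies higher in castrated AP RFP- (5757 against 2858 CPM) and DLP RFP- cells (4191 against 1482 CPM).

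In the other lobes Scgb2b27 went both ways, and the other 3 members stood lower after castration with all cells, on few UMIs; in AP RFP+ cells Scgb1b20 had 1 and 2 UMIs, too few for a direction. In AP RFP- cells (48 castrated, 127 intact) Scgb2b27 stood at 5757 CPM after castration and 2858 CPM in intact mice, Scgb2b12 at 76.4 against 92.5 CPM, Scgb2b20 at 8.49 against 78.9 CPM and Scgb1b20 at 5.31 against 44.4 CPM. The intact values of the last 2 rested on 1 cell each, with 220 of 233 and 117 of 131 UMIs, and without the highest cell of each sum the log2 ratio of Scgb2b20 turned from -3.22 to 0.37. In DLP RFP- cells (23 castrated, 66 intact) Scgb2b27 stood at 4191 against 1482 CPM, with 1427 of 2116 castrated UMIs in 1 cell, and the log2 ratio went from 1.5 to 0.07 when cells were thinned to 5000 UMIs. In these cells Scgb2b12 stood at 35.7 against 93.1 CPM, Scgb2b20 at 7.92 against 78.1 CPM (4 and 120 UMIs) and Scgb1b20 at 1.98 against 15.6 CPM (1 and 24 UMIs), and without the highest cell the intact levels of the last 2 were 2.68 CPM each. In AP RFP+ cells (180 castrated, 45 intact) Scgb2b27 stood at 192 against 554 CPM, Scgb2b12 at 5.07 against 123 CPM and Scgb2b20 at 2.85 against 15.6 CPM. The median log2 ratio of all genes was -0.18 in AP RFP-, -0.18 in DLP RFP- and 0.40 in AP RFP+ cells. The shares of genes at least 2-fold lower and at least 2-fold higher after castration were 15.9% and 8.3% in AP RFP-, 16.3% and 5.9% in DLP RFP-, and 7.09% and 22.6% in AP RFP+ cells.

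Castrated AP and DLP cells carried the members in Spink1-high cells as well. These were 10 of 48 AP RFP- and 5 of 23 DLP RFP- cells, which held 99.9% of the Scgb2b27 UMIs in both populations, at 10618 and 6391 CPM, and had a median barcode share of 20.4% and 20.9% against 42.6% and 42.9% in the others. The share of such cells was 20.8% and 21.7% there, against 14.2% (18 of 127) and 21.2% (14 of 66) in intact AP RFP- and DLP RFP- cells of the same run. Castrated DLP RFP+ cells (133 cells) held Scgb2b27 at 343 CPM, Scgb1b20 and Scgb2b20 at 1.35 CPM each and no Scgb2b12 UMI, which allows up to 1.35 CPM.

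No member was detected in the explants of the developing prostate. In 5209 cells of the UGS explants with a single barcode, at day 0, 1, 3 and 6 of culture, all 4 genes had 0 of 86448194 UMIs, which allows at most 0.0347 CPM each over all days and 0.218, 0.206, 0.138 and 0.0825 CPM by day. This library was not used in choosing the members. It was made from another tissue and stage and cultured, and these cannot be told apart as the source of the difference.

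The genes whose pattern was most like each member included Spink1, Sbp and Sbpl of the secretory list. Over 20 luminal sums of both treatments and 5858 genes with at least 20 CPM in at least 3 of them, Pearson's r of log2(CPM + 1) with Scgb2b27 was highest for Crabp1 (0.94), a retinoic acid binding protein gene, then Lrrc52 (0.92), Sbp (0.91), the spermine binding protein gene, Spink5 (0.90), a protease inhibitor gene, and Sbpl (0.89). Csta1, a cystatin gene, came first for Scgb2b20 (0.81), Scgb2b12 (0.80) and Scgb1b20 (0.64). Spink1 was also among the first 5 of these 3 genes, together with Sbpl. For Scgb2b20 the other 2 were Sbp and Asrgl1, for Scgb2b12 Hdac9 and Slc26a4, and for Scgb1b20 Gjb2 and Tmem263. Among themselves, Scgb1b20 and Scgb2b20 gave r = 0.93 and Scgb2b12 and Scgb2b20 r = 0.84. The sums share runs and lobes, so these values carry no p.

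Of the 30 other family genes, 8 had at least 100 UMIs in the adult cells, 15 had 1 to 99 and 7 had none. Scgb2b7 stood at 1541 ± 649 CPM in intact VP luminal cells (mean ± SD, n = 3 runs), second to Scgb2b27 at 6134 ± 2474 CPM, and Scgb1b27 at 457 ± 199 CPM. Scgb1b7 (18.5 ± 14.3 CPM), Scgb2b24 (13.1 ± 1.56), Scgb2b17 (7.85 ± 2.59), Scgb1b3 (6.95 ± 3.22), Scgb2b18 (5.01 ± 4.70) and Scgb1b10 (1.05 ± 0.92) were lower. Scgb2b7 exceeded its near copy Scgb2b20 (299 ± 141 CPM) in every run, while Scgb1b7 lay under its near copy Scgb1b20 (194 ± 135 CPM) in every run.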

How the data were processed

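The deposited tables hold UMI counts per gene and cell that the authors made with Cell Ranger 3.1.0 on mm10 (Seurat 3.1.5 is also named in the submitters' processing notes), with counts of population barcodes per cell. The members and gene lists were chosen with earlier results of these data known. Cells, the explants included, with over 750 and under 7500 genes, under 10% mitochondrial UMIs and 1 population barcode above the thresholds the study lists were kept; the study's methods state the 7500 limit for UMIs, which was run as an alternative, since most of the cells kept exceed it. Cells with several barcodes were taken as doublets and left out, and doublets within a population remain; the study's further removal of predicted doublets in runs 1 and 2, where the barcode of intact DLP RFP+ cells failed, was not repeated here. Epithelial cells (Epcam, no Ptprc, fewer than 3 UMIs of other lineages) were split at log2 2.25 of summed Krt5, Krt14 and Krt15 per 10000 UMIs; 160 lay within 1 log2 unit of it. UMIs were summed per run, lobe, RFP and compartment (at least 10 cells) and tested with edgeR 4.0.16 (quasi-likelihood, TMM, Benjamini-Hochberg, 0.05) in R 4.3.3; runs are the replicates. DESeq2 1.42.0 and the other settings are described further on. The test was checked on simulated data. Intact populations of a run come from the same pooled mice, so run numbers pair the intact samples compared; same-run deviations correlated at -0.00249 to 0.547 over 21 pairs. Intervals are exact Poisson at 95%, floors are 3 counts, and both cover counting error only. Named genes were the members, family genes with at least 100 UMIs, and the 5 genes outside the family most correlated with each. Sequences came from GENCODE transcripts and RefSeq promoters, of which the table held 3 of the 4 members. A gene of the list of secretory and androgen-responsive genes is not reported here.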

Additional observations from a re-analysis of the deposited data

Results flagged for a closer look

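In run 2, castration went with opposite directions of Scgb2b27 between populations, which the design could not test because each treatment was 1 pool. The log2 ratio of castrated over intact luminal cells was -1.76 in VP RFP+ and -1.53 in AP RFP+ cells, but 1.01 in AP RFP- and 1.5 in DLP RFP- cells. In the same order, it was -2.14, -1.30, 0.61 and 0.07 in cells thinned to 5000 UMIs. Without the highest cell of each sum it was -1.85, -1.37, 0.83 and 1.08. In castrated AP RFP- and DLP RFP- cells, 10 of 48 and 5 of 23 cells were Spink1-high and held 99.9% of the Scgb2b27 UMIs.

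Cells left out for lack of a single barcode also held the members, and Scgb2b27 lay far above Ptprc+ Epcam-negative cells of the same run in runs 1 and 2 (22.1 and 26.2 CPM); run 3 had 2 such background cells, at 0. The 1836 cells with no barcode held 116654 UMIs of Scgb2b27 (34.2% of all its UMIs, 3299 to 4021 CPM by run), 4858 of Scgb2b12, 3789 of Scgb2b20 and 1361 of Scgb1b20, which had 0 in run 3. Of these cells 598 were from run 1 and 1120 from run 2. In both runs the barcode of intact DLP RFP+ cells failed to label, per the methods, so the set can hold that population. The 1740 cells with more than 1 barcode held 56694 UMIs of Scgb2b27 (1067 to 1931 CPM), 1689 of Scgb2b12, 1867 of Scgb2b20 and 1772 of Scgb1b20.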

How the results depend on the processing

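Directions of the members held from luminal to basal cells in 45 of 45 alternatives; between lobes and RFP states they changed sign in 5, 11, 3, 4 and 2 of 44 each (VP RFP- against AP RFP-, DLP RFP- against AP RFP-, VP RFP- against DLP RFP-, VP RFP+ against VP RFP-, AP RFP+ against AP RFP-), so the smaller values there carry no direction. Counts of other family genes called, 0 in each lobe and RFP comparison and 6 from luminal to basal, were 4, 7, 2, 2 and 13 of 22 with no low-count filter (VP RFP- against AP RFP-, against DLP RFP-, VP RFP+ against RFP-, AP RFP+ against RFP-, luminal against basal). With the replicate block for run they were 2 and 2 in the first 2, and with a barcode share of at least 80% they were 2, 2 and, luminal against basal, 3 of 4; the block changed no other call. Leaving out each run gave 0 in DLP RFP- against AP RFP-, 0 in AP RFP+ against RFP- and 2 to 8 from luminal to basal. Comparisons with VP RFP- cells are not counted here, since without run 2 or 3 those cells had no replicate. At a limit of 7500 UMIs per cell no family gene was testable.

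Mean VP levels without each run were 120 to 252 CPM for Scgb1b20, 98.1 to 165 for Scgb2b12, 238 to 377 for Scgb2b20 and 5369 to 7561 for Scgb2b27. Without the highest cell of each sum they were 49.9 CPM for Scgb1b20 and 108.9 for Scgb2b20; at a limit of 7500 UMIs per cell 335 (Scgb1b20), 578 (Scgb2b12) and 1789 (Scgb2b20), from 1 run with enough cells; at a barcode share of 80% Scgb2b20 stood at 458. In castrated against intact VP RFP+ cells the log2 ratio of Scgb2b27 was -1.69 at the lower basal cut, -2.70 at a barcode share of 80%, -2.14 in thinned cells and -1.85 without the highest cells, and that of Scgb2b12 was -4.19 at a barcode share of 80% and -5.44 without the highest cells. The log2 ratio of Scgb2b20 in AP RFP- cells reversed to 0.37 without the highest cells. Other causes were not tested. Using Epcam-negative Ptprc+ cells as background enters no ratio. Values of Scgb1b20 and Scgb2b20 rest on few UMIs in castrated sums of at least 10 cells, where counts are 1 to 9.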
